A study of Mus musculus with 4 samples.

Results

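The difference between Prdm1 knockout and control regulatory T cells was compared between the follicular and the other regulatory cells of immunized mice. For each gene the log2 difference between genotypes in TFR (T follicular regulatory) cells was taken, and the corresponding difference in non-TFR cells was subtracted from it. The result is called the interaction here: it is positive where the knockout stood further above, or less far below, its control in TFR cells than in non-TFR cells, and negative in the reverse case. It was computed for 22180 genes, of which 11090 were expressed, meaning that their mean level over the 4 arrays lay above the median of all genes (5.91 on the log2 scale). Of these, 103 had an interaction of at least 2-fold, which is 1 on the log2 scale: 31 were more positive in TFR cells (0.28% of expressed genes) and 72 were more negative (0.649%).

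There were 4 groups with 1 Affymetrix Mouse Gene 2.0 ST array each, and all cells came from mice that carried Cre recombinase and YFP under Foxp3 control and had received NP-OVA, a hapten coupled to ovalbumin, in CFA (complete Freund's adjuvant) 7 days earlier. The control genotype was FoxP3YFP-Cre (WT) and the knockout genotype Prdm1fl/flFoxP3YFP-Cre (KO), in which Cre is present in cells that express Foxp3. TFR cells were sorted as CD4+ YFP+ PD1+ CXCR5+ cells and non-TFR cells as CD4+ YFP+ CXCR5- cells, with no PD1 gate named for the second population. The labels do not give the age or sex of the mice, how many mice stand behind an array or whether animals were pooled. With 1 array per group no difference below has a replicate check and none was tested: the values describe these 4 arrays, and the genes named were ranked by the interaction itself.

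Prdm1 encodes Blimp-1, a transcriptional repressor of terminally differentiated lymphocytes that is also found in effector regulatory T cells, where it is known for its link to the cytokine Il10. TFR cells are Foxp3+ cells that enter B cell follicles through the chemokine receptor CXCR5, express the transcription factor Bcl6, which opposes Blimp-1, and restrain germinal centre responses. Regulatory cells outside the follicle include resting cells and dividing effector cells that act in tissues and T cell zones.

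The targeted gene and the sort genes were read on the same scale. Prdm1 was at 8.21 and 7.32 in control and knockout TFR cells and 7.80 and 7.59 in the matching non-TFR cells, so that its genotype difference was -0.89 in the follicular and -0.21 in the other population. The array gives 1 summary for the gene, the deleted exons are not named in the sources used here, and signal from outside them checks nothing about the deletion. The interaction was 0.03 for Cxcr5, -0.69 for Pdcd1, which encodes PD1, -0.47 for Foxp3 and -0.17 for Cd4. Across expressed genes the interaction had a median of -0.01 and an SD of 0.31 (n = 11090 genes), and its middle 95% ran from -0.70 to 0.58. Genes are not replicates, so that this spread describes the distribution and not the error of a gene.

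Across the 11090 expressed genes Pearson's r between the genotype differences of the 2 populations was 0.35 and Spearman's rho 0.28, as a description over genes; these comparisons share no array. Of the 157 genes at least 2-fold apart between genotypes in either population, 49 (31.2%) also had an interaction of at least 2-fold. That was the case for 20 of the 75 genes 2-fold apart in TFR cells and for 32 of the 100 in non-TFR cells. The remaining 54 of the 103 genes were under 2-fold in each population, with differences of opposite sign in all 54. That sign is fixed by the definition, since differences under 2-fold with the same sign cannot lie 2-fold apart.

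**Figure D1:**
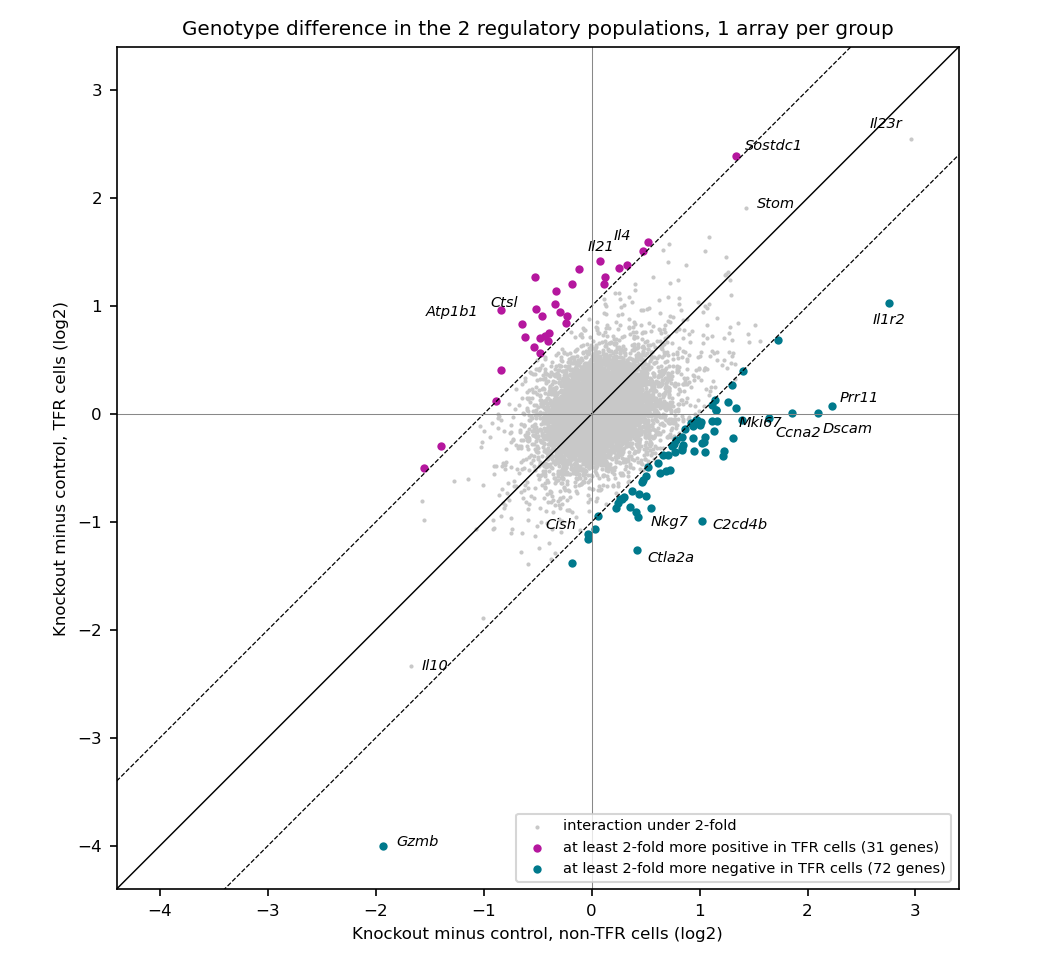
Each point is 1 of 11090 expressed genes, with the knockout minus control difference in non-TFR cells on the horizontal axis and in TFR cells on the vertical axis, both in log2. The solid line marks equal differences and the dashed lines an interaction of 2-fold; the 72 genes below the lower dashed line lie mainly to the right of 0 and near or below it, and the 31 genes above the upper line mainly to the left of 0 and above it.

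The negative genes were mainly genes that were higher in the knockout among non-TFR cells. In 68 of 72 the non-TFR difference was above 0, beside 55.7% of expressed genes. In 59 of 72 the TFR difference was below 0, beside 46.1% of expressed genes. Both differences are terms of the interaction. These signs, and which array was lowest or highest, are therefore partly fixed by the choice of genes. By size, 25 had a non-TFR difference of at least 2-fold beside a TFR difference under 0.5, 5 showed the reverse, 7 had differences of at least 0.5 with opposite signs, 3 differed in the same direction by unequal amounts, and 32 fell between these classes. Control non-TFR cells had the lowest of the 4 levels in 52 of 72 and knockout TFR cells in 20 of 72. The highest level was that of control TFR cells in 42 of 72. In control mice TFR cells stood above non-TFR cells in 66 of the 72, beside 52.4% of expressed genes. They did so by at least 2-fold in 43, a share that was not counted over expressed genes. Of the 72, the distance between the populations dropped below 0.5 in the knockout in 29, was smaller but not gone in 23, had the reverse sign with at least 0.5 on both sides in 5, was at least 0.5 in the knockout alone in 12, and was wider in 3. The control distance is itself a term of the interaction with a minus sign, so that its direction among genes chosen this way is partly fixed by the choice.

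The positive genes were mostly higher in knockout TFR cells. Their TFR difference was above 0 in 29 of 31, beside 53.8% of expressed genes. Their non-TFR difference was below 0 in 23 of 31, beside 44.2% of expressed genes. As for the negative genes, these signs and the order of the arrays are partly fixed by the choice of genes. In 10 the TFR difference was at least 2-fold and the non-TFR difference under 0.5, in 2 the reverse held, 6 had differences of at least 0.5 with opposite signs, 2 (Shtn1 and Sostdc1) differed in the same direction by unequal amounts, and 11 fell between these classes. Knockout TFR cells had the highest level in 21 of 31 and control non-TFR cells in 10. Of the 103 genes in all, 74 lay above the expression limit in all 4 arrays (55 negative, 19 positive), and in 28 a single array stood at least 0.5 from the other 3, which lay within 0.5 of each other: 13 times control non-TFR, 8 times knockout TFR, 7 times control TFR and 0 times knockout non-TFR cells. Signal below the limit was not shown to be above background, and differences that reach into it can be compressed.

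Dividing-cell genes made up the largest listed group of negative genes. Of 30 measured mitosis genes, which act from the end of DNA replication to the separation of the daughter cells, 8 were at least 2-fold more negative and none more positive, 26 lay below 0 and 4 above, and the median interaction was -0.43, beside -0.02 for all 22180 genes, of which 52.9% lay below 0 and 47.1% above. The same 30 genes were higher in knockout than in control non-TFR cells in 30 of 30 cases, with a median difference of 0.60, beside 56.1% above 0 for all genes. Their median level in control non-TFR cells lay below the expression limit, so that the sizes of these differences are uncertain. In TFR cells 22 of 30 were higher in the knockout, by a median of 0.10. In array data from bulk cells, more dividing cells in a population and more RNA of these genes per cell cannot be told apart.

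Prr11, which takes part in cell cycle progression, had the lowest interaction of all expressed genes. It was at 9.31 and 9.39 in control and knockout TFR cells and 5.07 and 7.29 in the matching non-TFR cells, an interaction of -2.15. The follicular arrays were nearly level and the control non-TFR array, which lay below the expression limit, was far below the other 3. Ccna2, the cyclin that acts in S phase and at entry into mitosis, was at 9.58, 9.54, 6.12 and 7.76 in the same order of arrays, an interaction of -1.68 (3.21-fold). All 4 of its levels were above the limit, and knockout non-TFR cells stood between control non-TFR and TFR cells. Mki67, the widely used proliferation marker, was at 11.31 and 11.37 in control and knockout TFR cells and 7.90 and 9.24 in the matching non-TFR cells, an interaction of -1.29. The mitotic cyclin Ccnb2 was at 9.78, 9.51, 6.91 and 7.93, which also gave -1.29. In both genes the TFR arrays of the genotypes lay close together and the knockout non-TFR array lay above its control. The other 4 were Tpx2, a spindle assembly factor, at -1.22, Nusap1, which binds spindle microtubules, at -1.16, Top2a, the DNA topoisomerase of chromosome segregation, at -1.04, and the mitotic kinase Plk1 at -1.03. Tpx2 and Nusap1 lay below the expression limit in control non-TFR cells, as did Cdk1. Cdk1, the kinase that drives entry into mitosis, was just short of 2-fold at -0.998, from levels of 9.13, 9.45, 5.52 and 6.84. Not every mitosis gene had this pattern: the interaction was 0.11 for Cdc20, an activator of the anaphase-promoting complex, 0.04 for the kinase Aurka and 0.01 for the checkpoint kinase Bub1b.

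The promoters of mitosis genes are known for the CHR (cell cycle genes homology region) element and for CCAAT boxes bound by NF-Y, and stretches of 4 of the genes just named are printed to show where these letters lie. These 4 were chosen because they hold CHR. Each runs 5' to 3' on the gene's own strand, from 120 bases before to 30 bases after the RefSeq transcription start in build GRCm38.p6, 150 bases in all. Capitals mark CHR (TTTGAA or TTCGAA) and the CCAAT box, each on either strand (TTCAAA and ATTGG are reverse complements, TTCGAA is its own, and the marked matches do not overlap). The stretches are chr11:87108685-87108834 on the minus strand for Prr11, chr9:70421525-70421674 on the minus strand for Ccnb2, chr11:99024160-99024309 on the minus strand for Top2a and chr7:135716350-135716499 on the minus strand for Mki67.
Prr11: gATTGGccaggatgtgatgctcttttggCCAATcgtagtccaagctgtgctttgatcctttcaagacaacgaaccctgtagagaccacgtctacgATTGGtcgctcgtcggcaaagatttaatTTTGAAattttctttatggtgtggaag
Ccnb2: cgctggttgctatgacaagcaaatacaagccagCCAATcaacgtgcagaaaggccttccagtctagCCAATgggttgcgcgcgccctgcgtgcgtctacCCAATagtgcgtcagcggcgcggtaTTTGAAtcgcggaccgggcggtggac
Top2a: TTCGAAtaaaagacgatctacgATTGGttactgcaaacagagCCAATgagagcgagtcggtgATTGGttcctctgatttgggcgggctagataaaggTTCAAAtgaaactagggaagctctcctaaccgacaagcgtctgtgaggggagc
Mki67: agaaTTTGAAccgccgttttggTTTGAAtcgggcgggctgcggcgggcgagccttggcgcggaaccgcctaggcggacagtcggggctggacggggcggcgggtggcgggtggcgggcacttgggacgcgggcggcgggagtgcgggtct
Prr11 and Ccnb2 each hold 1 CHR beside the transcription start and 3 CCAAT boxes before it. Top2a has 2 CHR and 3 CCAAT boxes, and Mki67 2 CHR and no CCAAT box. Of the 8 mitosis genes past 2-fold, 6 had a promoter in the RefSeq table; 4 of these hold CHR in such a stretch, 4 a CCAAT box and 3 both, while that of Nusap1 holds neither.

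Over the longer window of 250 bases before to 50 after the start, CHR was found in 25 of 28 promoters of mitosis genes (89.3%), in 19.2% of all 32851 promoters of the table and in 13.7% of those of expressed genes. A CCAAT box was found in 85.7% of the mitosis promoters and in 37.4% of all promoters. CHR and CCAAT together were found in 82.1% and 7.53%. Among the negative genes as a whole, CHR was present in 18 of 68 promoters (26.5%), and in 21.0% of 62 without the members of the cell cycle lists. Cell division genes outside those lists, such as Ube2c and Kif15, were not taken out. For the positive genes CHR was present in 4 of 23 (17.4%). GAAAGTG, the core that Blimp-1 and interferon regulatory factors can bind, was present on either strand in 4.41% of the promoters of negative genes, 8.70% of those of positive genes and 4.81% of all promoters. These are matches of letters and not binding sites, and genes can have several promoters in the table.

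DNA replication genes, which copy the genome in S phase, had a smaller and more even shift. Of 29 measured genes 26 lay below 0 and 3 above, the median interaction was -0.30, and none was past 2-fold. The non-TFR difference was above 0 in 27 of 29 with a median of 0.34, against a median of -0.04 in TFR cells. Over all genes 56.1% had a non-TFR difference above 0. Uhrf1, which maintains DNA methylation at the replication fork, had the lowest value at -0.92, from levels of 9.66 and 9.53 in control and knockout TFR cells and 7.64 and 8.43 in the matching non-TFR cells. Mcm3, a subunit of the replicative helicase, was at -0.80, the ribonucleotide reductase subunit Rrm2 at -0.78 and the DNA polymerase Pole at -0.77. Beside the mitosis genes, 4 of 26 promoters of replication genes (15.4%) hold CHR and 69.2% hold a CCAAT box. Cell division genes outside the lists were also among the 72: Ube2c, the ubiquitin-conjugating enzyme of the anaphase-promoting complex, was at -1.18, the replication initiation factor Ticrr at -1.16, the kinesin Kif15 at -1.16, Pclaf, a PCNA partner, at -1.12 and the transcription factor E2f8 at -1.01.

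**Figure D2:**
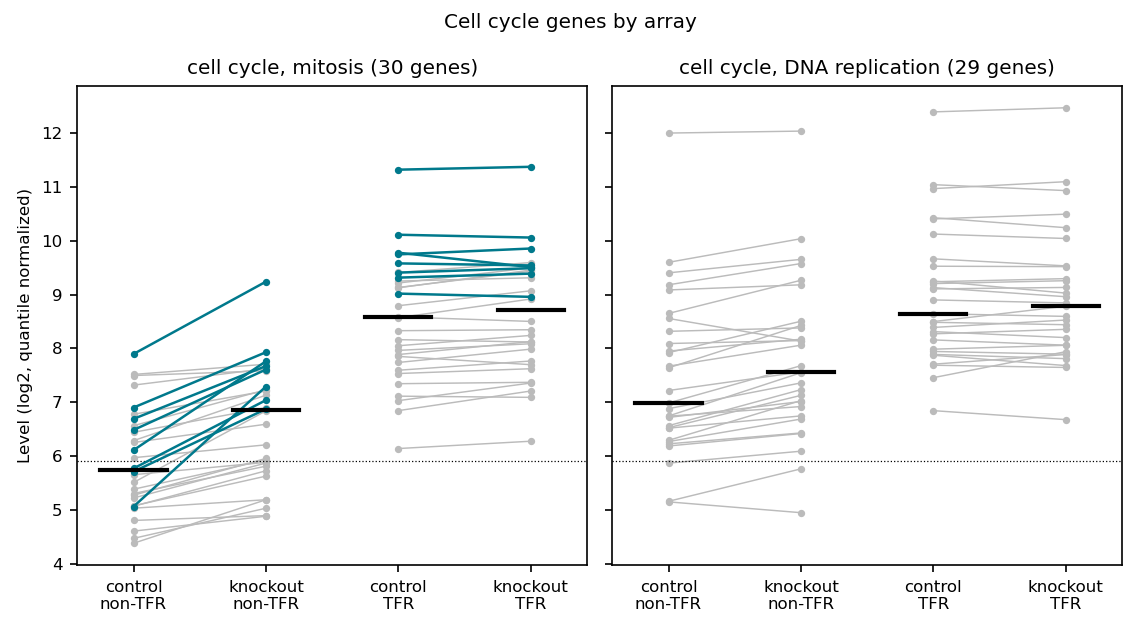
Lines join the control and knockout levels (log2) of each gene within non-TFR and within TFR cells, for 30 mitosis genes on the left and 29 DNA replication genes on the right; thick bars are medians over genes, coloured lines the 8 mitosis genes past 2-fold, and the dotted line the expression limit of 5.91. Median mitosis levels were 5.75 in control non-TFR, 6.86 in knockout non-TFR, 8.58 in control TFR and 8.71 in knockout TFR cells, so that the step between genotypes is seen on the left side of the panel. The control non-TFR median lay below the limit. In non-TFR cells the distance between the medians was larger than the median difference per gene given in the text.

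Of 16 measured genes of cytotoxic granules 11 lay below 0 and 5 above, beside the 52.9% of all genes below 0. In this list 3 were at least 2-fold more negative and none more positive. The median interaction was -0.30, and -0.12 over the 11 members in no other list. Gzmb, the serine protease granzyme B, was at 8.54 and 4.55 in control and knockout TFR cells and 7.94 and 6.01 in the matching non-TFR cells, a difference of -3.998 in TFR and -1.93 in non-TFR cells and an interaction of -2.07. Both knockout arrays were below their controls, and the knockout TFR array lay below the expression limit, so that the size of its difference is uncertain. The control distance of 0.60 between the populations became -1.47 in the knockout. Ctla2a, a cysteine protease inhibitor, was at 9.30, 8.04, 8.30 and 8.72, an interaction of -1.68. It was lower with the knockout in TFR cells and slightly higher in non-TFR cells, so that the order of the populations turned. Nkg7, a granule membrane protein needed for cytotoxic release, was at 10.42, 9.46, 9.12 and 9.56, an interaction of -1.39. Here control TFR cells stood above the other 3 arrays, which were alike. Fasl, the death ligand, was at 7.83, 6.59, 8.31 and 7.82 (-0.75), and the pore protein Prf1 at 6.26, 6.18, 8.05 and 7.13 (0.84). Prf1 thus went the other way, with the lower knockout value in non-TFR cells. Cst7, an inhibitor of granule proteases that was not in the list, had levels of 11.02, 10.86, 9.52 and 10.66 and an interaction of -1.29. Its low array was that of control non-TFR cells.

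Markers of CD8 T cells and NK cells, which share these granule genes, were read beside them. Their summed linear level, as log2, was 9.97 and 9.93 in control and knockout TFR cells and 10.07 and 10.04 in the matching non-TFR cells, and between 3 and 5 of the 11 measured markers lay above the expression limit in an array. The NK receptor Ncr1 was between 4.46 and 4.91 and Cd8a between 5.36 and 5.604, all below the limit, while Cd8b1 was between 8.73 and 9.42. The part of such cells in the granule values was not tested.

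Effector regulatory T cell genes were the list with the lowest median interaction. Of 30 measured members 28 lay below 0, with a median of -0.67, 4 were at least 2-fold more negative and none more positive. The list was higher in knockout non-TFR cells in 23 of 30 cases (median 0.36) and lower in knockout TFR cells in 22 of 30 (median -0.25). Besides Gzmb and Nkg7 the 4 were Ebi3, a subunit of interleukin-35, and Itgae, the integrin CD103 that binds epithelial E-cadherin. Ebi3 was at 8.14 and 7.86 in control and knockout TFR cells and 6.89 and 7.74 in the matching non-TFR cells, an interaction of -1.14 with the brightest probe and -0.77 with the mean of its probes. Control non-TFR cells stood below the other 3. Itgae was at 8.64, 8.29, 8.94 and 9.72, an interaction of -1.13, with its highest level in knockout non-TFR cells. Short of the limit were Tbx21 (-0.95), the transcription factor of T helper 1 cells, Tnfrsf1b (-0.91), a TNF receptor, and the chemokine receptors Cxcr3 (-0.81), Ccr8 (-0.80) and Ccr6 (-0.74). Cxcr3 was at 10.14, 10.44, 8.398 and 9.52, higher with the knockout in both populations and more so in non-TFR cells. The shift was not that of every member: Klrg1, an inhibitory receptor of differentiated effectors, was lower with the knockout by a like amount in both (-0.87 and -0.81, interaction -0.06), and Lgals1 was at 0.01. The list shares members with others, and its 7 members in no other list had a median of -0.08.

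Il10, the anti-inflammatory cytokine of effector regulatory cells, was lower with the knockout in both populations. It was at 9.03 and 6.70 in control and knockout TFR cells and 8.22 and 6.55 in the matching non-TFR cells, with differences of -2.33 and -1.67. The knockout arrays of the populations were nearly level while the control arrays were 0.81 apart. The interaction of -0.66 was within the middle 95% of expressed genes.

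The core genes of regulatory T cells had an interaction below 0 in 22 of 24 measured cases, with a median of -0.45, 3 at least 2-fold more negative and none more positive. All 24 lay above the expression limit in every array. Their median difference was -0.23 in TFR and 0.28 in non-TFR cells. Entpd1, the ectoenzyme CD39 that degrades extracellular ATP, was the lowest, at 8.21 and 7.47 in control and knockout TFR cells and 7.63 and 8.07 in the matching non-TFR cells, an interaction of -1.18. Knockout TFR cells lay near control non-TFR cells, and knockout non-TFR cells near control TFR cells. Il2ra, the high-affinity interleukin-2 receptor chain, was at 11.67, 11.00, 12.17 and 12.24, an interaction of -0.74. Only the knockout TFR array was lower than its control by more than 0.5. Foxp3, the lineage factor and the gene behind the YFP gate, was at 12.36, 11.87, 12.45 and 12.42 (-0.47), likewise with its lowest value in knockout TFR cells. Ctla4, an inhibitory receptor central to suppression, was at -0.41, and Ikzf4 and Nrp1 at -0.62 and -0.64. Members near 0 were Itgb8 (-0.04), an integrin that activates TGF-beta, and Il2rb (0.03). Over the core members in no other list the median was -0.49.

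Cish, a feedback inhibitor of interleukin-2 and STAT5 signalling, had its low value in knockout TFR cells only. It was at 11.33 and 10.27 in control and knockout TFR cells and 11.29 and 11.32 in the matching non-TFR cells, a difference of -1.07 in TFR and 0.03 in non-TFR cells. The other 16 measured STAT and SOCS genes were within 0.37 of 0 in either direction. Lad1, an anchoring filament protein, had the same form with 8.80, 7.42, 8.93 and 8.75 (-1.197), as did Cd86, a ligand of Ctla4 and Cd28, with 9.75, 8.88, 9.50 and 9.86 (-1.22).

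Receptors and ligands of the costimulatory families lay below 0 in 15 of 16 measured cases, with a median of -0.36 and none past 2-fold. Tnfrsf1b was at 10.30 and 9.88 in control and knockout TFR cells and 9.56 and 10.06 in the matching non-TFR cells, followed by Cd226 (-0.77) and Tnfrsf9 (-0.76), the receptor 4-1BB. In all 3 genes the knockout was lower than its control in TFR cells and higher in non-TFR cells. Among inhibitory receptors, with 10 of 14 below 0 and a median of -0.26, Cd160 was past the limit at -1.04, and Lag3 was at 8.65, 9.40, 7.24 and 8.52 (-0.53). Lag3 was higher with the knockout in both populations.

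The follicular programme did not shift one way. Of 29 measured members 17 lay below 0 and 12 above, with a median of -0.05, while 4 were at least 2-fold more positive and 1 more negative. Both populations had mainly higher levels in the knockout (25 of 29 in TFR and 27 of 29 in non-TFR cells), with median differences of 0.55 and 0.41. Over all genes 52.4% in TFR and 56.1% in non-TFR cells were higher. The members of the list were chosen with earlier results of these data known. The 4 positive members, Il21, Il1rn, Sostdc1 and Il4, encode secreted proteins. Il21, the cytokine that drives germinal centre B cells, was at 6.59 and 8.004 in control and knockout TFR cells and 5.34 and 5.42 in the matching non-TFR cells, an interaction of 1.34. Knockout TFR cells had the highest level, and both non-TFR arrays were below the limit, where any difference is uncertain. Il4, the helper cytokine of class switching, was at 7.11, 8.63, 5.41 and 5.88, an interaction of 1.04. The same limit holds for its non-TFR arrays. Sostdc1, a secreted antagonist of BMP and Wnt signals, was at 7.33, 9.72, 5.68 and 7.02, higher with the knockout by 2.39 in TFR and 1.34 in non-TFR cells (interaction 1.05). Its control non-TFR array was below the limit, so that the sizes of its non-TFR difference and interaction are uncertain. Bcl6, the master transcription factor of follicular T cells, was at 8.82, 9.94, 7.84 and 8.10. Its difference was 1.12 in TFR and 0.25 in non-TFR cells, an interaction of 0.87, short of the limit but above the middle 95% of expressed genes.

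Other follicular genes were shared between the populations or leaned to non-TFR cells. Cebpa, a transcription factor of myeloid cells and part of the list, differed by 1.24 and 1.29, Tox2 by 0.67 and 0.70, and the gate gene Cxcr5 by 0.87 and 0.84 in TFR and non-TFR cells. For these genes the interaction was within 0.05 of 0. Pdcd1, also a gate gene, was at 9.86 and 10.68 in control and knockout TFR cells and 7.44 and 8.96 in the matching non-TFR cells. The non-TFR difference of 1.52 was the greater one. Since PD1 and CXCR5 set the gates, their levels within a gated population are not independent of the sort.

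The interleukin-1 system held genes at both ends. Il1r2, the decoy receptor that binds interleukin-1 without signalling, was at 10.70 and 11.73 in control and knockout TFR cells and 7.35 and 10.11 in the matching non-TFR cells, an interaction of -1.72 (3.30-fold). It was higher with the knockout in both populations, by 1.03 and 2.76, and knockout non-TFR cells came close to control TFR cells. Il1rn, the secreted receptor antagonist, was at 7.53, 8.44, 5.26 and 5.04, an interaction of 1.14. It was higher in the knockout in TFR cells, and its non-TFR levels were below the limit. Il1r1, the signalling receptor, was at 5.19, 6.34, 4.91 and 5.06, dim in 3 of 4 arrays. Of 12 measured interleukin-1 family genes, 6 were expressed, and of these 1 was past the limit in each direction. Il18, an inflammatory cytokine whose mean lay below the expression limit, was at 6.64, 6.52, 4.67 and 5.58 (-1.02).

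**Figure D3:**
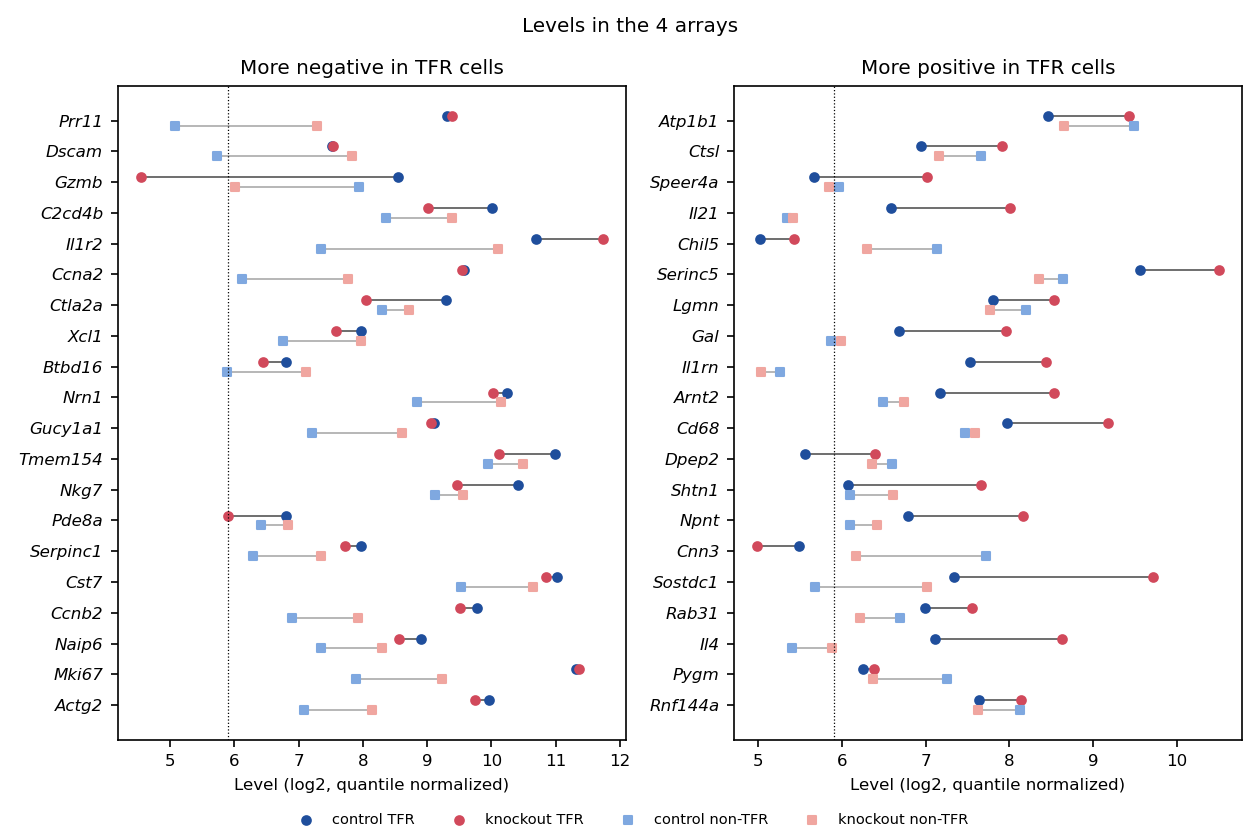
Levels (log2) of the 20 lowest and 20 highest interactions among expressed genes with ordinary symbols, ordered by size from the top, with circles for TFR and squares for non-TFR cells and a line from control to knockout; the dotted line is the expression limit of 5.91. On the left the squares mostly move right while the circles mostly stay or move left, as for Ccna2 (6.12 to 7.76 in non-TFR, 9.58 to 9.54 in TFR cells), except for Gzmb (both left) and Il1r2 (both right), and on the right mainly the circles move right, as for Arnt2 (7.18 to 8.53).

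Genes of cytokine signals divided in the same way. Ifng, the T helper 1 cytokine, was at 8.71 and 7.93 in control and knockout TFR cells and 7.96 and 8.25 in the matching non-TFR cells, an interaction of -1.07. The control TFR array was the highest and the other 3 were closer together. Xcl1, a chemokine that attracts cross-presenting dendritic cells, was at 7.97, 7.58, 6.76 and 7.98 (-1.61). There control non-TFR cells alone were low. Of 19 measured T helper and effector cytokines, 12 lay below 0 and 7 above, 2 past the limit in each direction, and only 10 were expressed. Among 15 chemokine ligands Xcl1 was past the limit and the median was -0.08, or -0.79 over the 6 that were expressed, with Ccl5 at -0.86, Cxcl2 at -0.85 and Cxcl10 at -0.73. Among 17 chemokine receptors none was past it, with a median of -0.24.

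Further genes of the non-TFR class were Dscam, a cell adhesion molecule best known from neurons, at 7.52 and 7.53 in control and knockout TFR cells and 5.74 and 7.84 in the matching non-TFR cells (-2.09), and Nrn1, the membrane protein neuritin, at 10.24, 10.02, 8.84 and 10.15 (-1.53). In both, control non-TFR cells alone were low, in Dscam below the limit, and knockout non-TFR cells were level with TFR cells. Gucy1a1, a subunit of the nitric oxide receptor guanylate cyclase, was at 9.11, 9.06, 7.21 and 8.60 (-1.45), with knockout non-TFR cells in between. Serpinc1 at -1.30 and Actg2 at -1.26 had the same form, while in Btbd16, at 6.80, 6.45, 5.88 and 7.11 (-1.57), knockout non-TFR cells were the highest. The control non-TFR array of Btbd16 was just below the limit. Naip6 was at -1.29 and its paralog Naip2 at -0.97, both with a non-TFR difference short of 2-fold. How far each signal belongs to its own gene is uncertain. Among the 25 negative genes with a 2-fold difference in non-TFR cells alone, knockout non-TFR cells lay between the control non-TFR and control TFR arrays in 21. The same levels chose these genes, so that this position is partly fixed by the choice. It was not counted over all expressed genes.

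Genes whose genotype differences were at least 0.5 in each population and of opposite sign numbered 13, 7 negative and 6 positive. C2cd4b, a C2 domain protein, was at 10.01 and 9.02 in control and knockout TFR cells and 8.36 and 9.39 in the matching non-TFR cells, differences of -0.99 and 1.03 and an interaction of -2.02, or -1.19 with the mean of all its probes. The populations moved towards and past each other. Atp1b1, the beta subunit of the sodium pump and a member of the naive cell list, was at 8.46, 9.43, 9.49 and 8.65, an interaction of 1.81, the highest of all expressed genes. In control mice the non-TFR array was the higher, in the knockout the TFR array. Ctsl, the lysosomal protease cathepsin L, was at 6.94, 7.92, 7.67 and 7.16 (1.49) with the same reversal. Tmem154 (-1.43), the mRNA-decay endonuclease family member Zc3h12c (-1.24) and the histone deacetylase Hdac9 (-1.18) reversed in the other direction.

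Positive genes outside the follicular list included Cd68 and Lgmn; no list of lysosomal genes was examined. Cd68, a lysosomal membrane protein, was at 7.97 and 9.17 in control and knockout TFR cells and 7.47 and 7.59 in the matching non-TFR cells, an interaction of 1.09. Lgmn, the lysosomal protease legumain, was at 7.81, 8.53, 8.20 and 7.77 (1.15). In both, as in Ctsl, the knockout TFR array was the highest. Cd68 also serves as a macrophage marker. The 18 measured myeloid and dendritic cell markers had a summed linear level, as log2, of 11.91 and 12.21 in control and knockout TFR cells and 11.50 and 11.76 in the matching non-TFR cells, and 3 of 18 (Cd68, Cybb and Cst3) lay above the limit in each array. These 3 made up most of the sum. Since Cd68 and Cybb are themselves past 2-fold, the sum is not independent of the genes it is read beside. Lyz2 was between 4.08 and 4.46, Csf1r between 5.21 and 5.56, Adgre1 between 4.33 and 4.73 and Itgax between 4.83 and 4.98, all below the limit. Cybb, the NADPH oxidase subunit of phagocytes, went the other way from Cd68, with 10.33, 10.73, 8.32 and 9.72 (-1.003).

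The membrane protein Serinc5 was at 9.56 and 10.50 in control and knockout TFR cells and 8.64 and 8.35 in the matching non-TFR cells (1.24), well above the limit throughout. Arnt2, a bHLH-PAS transcription factor, was at 7.18, 8.53, 6.49 and 6.75 (1.10), the neuropeptide Gal at 6.69, 7.96, 5.88 and 5.996 (1.15) and Npnt, an integrin ligand, at 6.78, 8.16, 6.10 and 6.42 (1.05). Knockout TFR cells were the highest in each. The control non-TFR array of Gal was just below the limit. Cnn3, an actin-binding calponin, was positive through non-TFR cells, at 5.49, 4.99, 7.72 and 6.17 (1.05). Both of its TFR arrays were below the limit, where any difference is uncertain.

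Genes of naive and resting T cells had mostly shared differences. Of 18 measured members 11 lay below 0 and 7 above, with a median of -0.08, and the knockout was lower in 14 of 18 in TFR and 16 of 18 in non-TFR cells (median differences -0.36 and -0.40). Over all genes the knockout was lower in 47.6% in TFR and in 43.8% in non-TFR cells. Ccr7, the receptor for lymph node T cell zones, was at 9.86 and 8.52 in control and knockout TFR cells and 10.59 and 10.21 in the matching non-TFR cells, an interaction of -0.96. Its low array was knockout TFR. Satb1, a chromatin organizer, differed by -0.68 and -0.59 and Foxp1 by -0.48 and -0.42, which are like amounts. Ly6c1 had an interaction of 2.34 from 4.24, 4.90, 7.39 and 5.72, but its mean lay below the expression limit and signal cannot be assigned between it and Ly6c2.

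Genes reported as repressed by Blimp-1, a list from general knowledge and not from these cells, lay on both sides: 10 of 16 below 0 and 6 above, with a median of -0.25, Il21 past the limit upwards and Ifng downwards. They were higher in the knockout in 7 of 16 cases in TFR and in 13 of 16 in non-TFR cells, beside 52.4% and 56.1% of all genes. The metabolic lists were among the few with medians above 0. Glycolysis and hypoxia genes lay above 0 in 12 of 18 (median 0.21), with the highest values for the lactate exporter Slc16a3 (0.82), Bnip3 (0.61), a mitophagy receptor that was not expressed by the limit used, and the glycolytic enzyme Pfkl (0.49). Hif1a, the hypoxia factor, followed at 11.53 and 12.37 in control and knockout TFR cells and 10.80 and 11.20 in the matching non-TFR cells (0.44). Cholesterol synthesis genes lay above 0 in 13 of 15 (median 0.15), led by Msmo1 (0.71) and by Srebf2, the regulator of the pathway, at 10.37, 10.37, 10.69 and 10.11 (0.57). Its TFR arrays were level and the knockout non-TFR array was the lowest. Oxidative phosphorylation had a median of 0.04. None of the genes of these 3 lists was past 2-fold.

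Of the 25 programme and pathway lists, 22 had a median below 0 and 3 above, and 9 had a median at or below -0.25. Among those closer to 0, immediate early and other T cell receptor induced genes lay below 0 in 21 of 24 (median -0.20), apoptosis genes in 14 of 18 (-0.12), T cell transcription factors in 18 of 28 (-0.11), interferon response genes in 18 of 27 (-0.08), adhesion genes in 14 of 20 (-0.07) and genes of antigen presentation in 9 of 14 (-0.07). Genes of the Th17 axis with IL-23 and IL-6 lay below 0 in 10 of 17 (-0.12). Lists overlap in members, so that these counts are not separate. Over all 22180 genes 52.9% lay below 0 and 47.1% above, with a median of -0.02. Each list count here and above is to be read beside these shares, and several are not far from them.

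**Figure D4:**
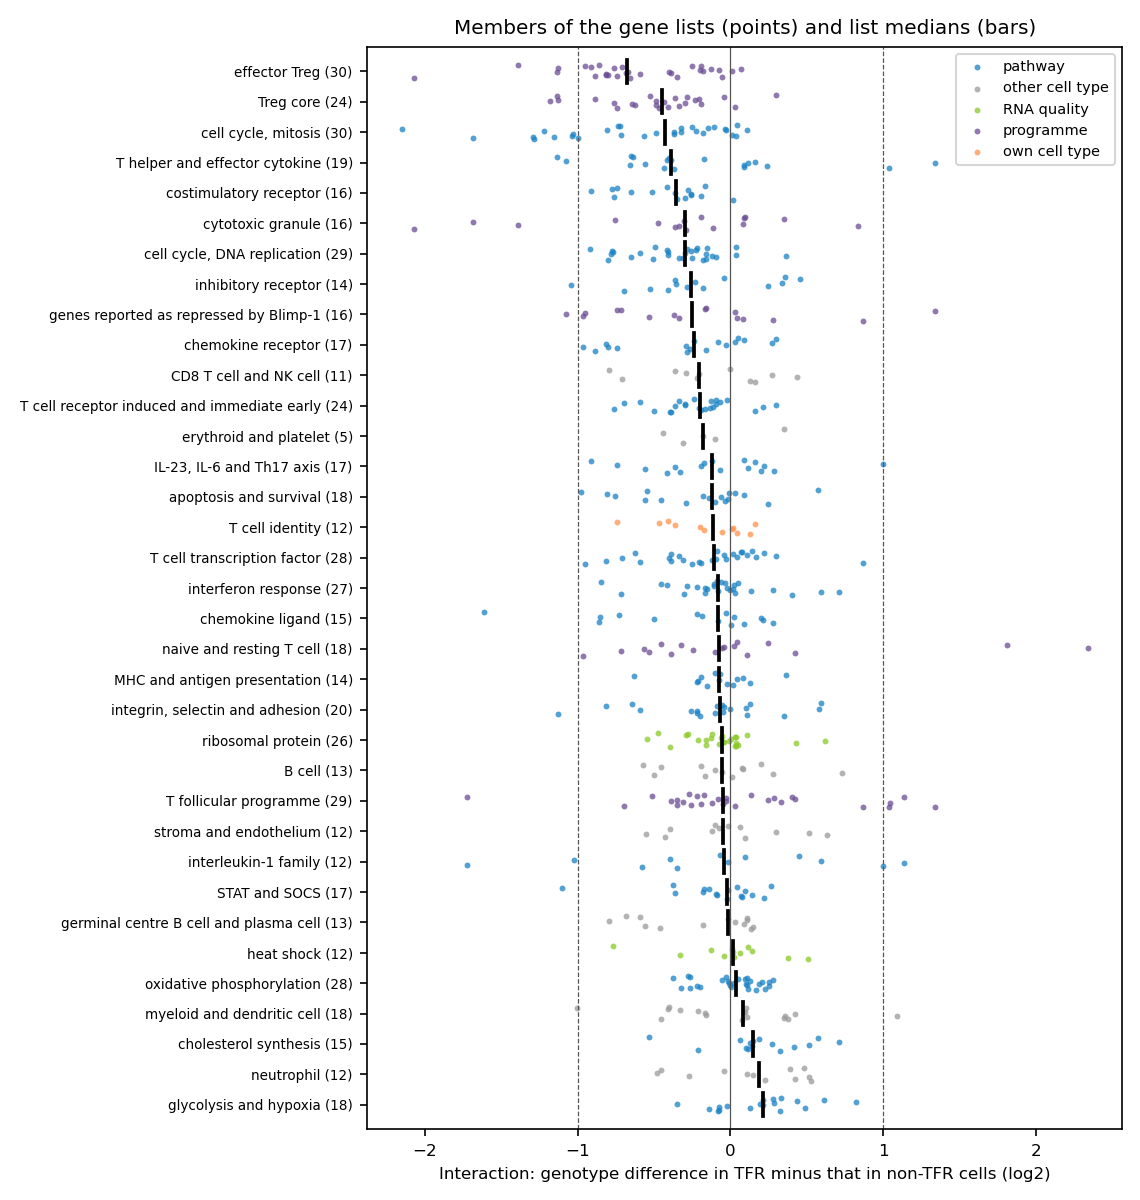
Points are the interactions (log2) of the measured members of 35 gene lists, with the number measured in brackets, black bars are list medians, and dashed lines mark 2-fold. Effector Treg (-0.67), Treg core (-0.45) and mitosis genes (-0.43) have the lowest medians, and glycolysis and hypoxia (0.21) the highest.

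Genes that differed between genotypes in both populations alike form the other side of the comparison. At least 2-fold in both were 18 genes, all 18 in the same direction, and 12 of these had an interaction under 0.5. Stom, the membrane protein stomatin, was at 7.13 and 9.03 in control and knockout TFR cells and 6.82 and 8.25 in the matching non-TFR cells, differences of 1.91 and 1.43. Il23r, the interleukin-23 receptor chain, was at 5.49, 8.04, 4.47 and 7.43, differences of 2.55 and 2.96, with both control arrays below the limit. Gna14, a G protein subunit, differed by 1.32 and 1.26, the keratin Krt17 by 1.46 and 1.24, and Mid2 by 1.30 and 1.24. The control non-TFR arrays of Gna14 and Krt17 were below the limit. Il1r2, Gzmb and Sostdc1 were the 3 of the 18 whose interaction was at least 2-fold.

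The values nearest to the limit were close to it on either side. Just inside were Hgf at a fold of 2.0001 in the negative direction, Cybb at -1.003 and Pygm at 1.005, and just outside were Rgs9 at -0.999, Cdk1 at -0.998 and Rnf144a at 0.999. Symbols of microRNAs and small nucleolar RNAs made up 9 of the 31 positive and 1 of the 72 negative genes, led by Mir3473c at 8.17 and 9.43 in control and knockout TFR cells and 9.63 and 9.10 in the matching non-TFR cells (1.79). All 4 arrays were above the limit in 8 of the 9. The share of such symbols among all expressed genes was not counted, so that these counts have nothing to be set beside.

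Other cell types and RNA quality were read from their own lists. All 12 measured T cell identity genes lay above the limit in every array. Of 13 B cell markers between 3 and 5 did, with a summed linear level, as log2, of 10.07 and 10.42 in control and knockout TFR cells and 9.62 and 9.89 in the matching non-TFR cells; Ms4a1 was between 3.98 and 4.12 and Cd79a between 5.37 and 5.69, all below the limit. Above it in every array were Cd79b, between 8.08 and 8.42, Bank1, between 6.06 and 6.95, and Cd22, at 8.27 and 9.27 in control and knockout TFR cells and 5.99 and 7.04 in the matching non-TFR cells. Cd22 was higher with the knockout in both populations, by 1.001 and 1.06, with an interaction of -0.05. The higher B cell sum in knockout TFR cells came mainly from Cd22, while Cd79b and Bank1 were lower there than in control TFR cells. Neutrophil markers were above it in 0 or 1 of 12, stroma and endothelium markers in 4 to 6 of 12. Ribosomal proteins had a median interaction of -0.05 and heat shock genes 0.02, and the heat shock sum was 14.17, 14.69, 14.57 and 14.99, higher in both knockout arrays. Ighg3, an antibody constant region outside the naming rule, was at 8.14, 8.15, 6.42 and 8.27 (-1.85), low in control non-TFR cells alone. The part of other cells in the values of the 103 genes was not tested.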

How the data were processed

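Total RNA of the sorted cells, 1 ug per sample per the labels' protocols, was hybridized to 4 arrays, 1 per group, assigned by sample title. The deposited table, made by the authors, holds log2 values, 1 per probe and array, a scale inferred from their range (2.23 to 13.8). The submitters' processing notes name MAS5, with no version or role; background correction and genome build are not given in the labels, and no depth or detection call comes with arrays, whose number limits the precision. Deposited array medians spanned 0.105. All 41345 probes were quantile normalized with limma 3.58.1 in R 4.3.3, which removes differences common to most genes. Of the probes, 23521 had 1 gene symbol in the platform annotation, 1814 several and 16010 none; 23328 matched the GRCm38.p6 gene table by Entrez identifier and 0 symbols changed. Where a gene had more than 1 probe (1082 genes) the brightest by mean was kept, and probe positions are not reported.

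The interaction was computed per gene in Python 3.11.15 with pandas 2.3.3, with no pseudocount and no test, since 1 array per group leaves none. A difference of 1 on the log2 scale counted as 2-fold and one under 0.5 as small. A class by size, the array that stood apart and the list counts followed from these limits; the steps were tested on simulated data. List medians are over all measured members. The genes named were the 20 highest and 20 lowest among expressed ordinary symbols (no predicted genes, small RNAs, antibody or receptor segments or olfactory receptors), up to 4 members per list, all ordinary genes of opposite sign, up to 6 shared genes, and Prdm1, Foxp3, Cxcr5, Pdcd1 and Cd4. Other genes, such as Klrg1, Lad1, Cd86, Il10, Cdk1, Ighg3 and further list members, were picked with their values in view. The 35 lists came from general knowledge, and members and lists were chosen with earlier results of these data known. Promoters came from the RefSeq table. Alternatives tried were the deposited values without quantile normalization, cyclic loess, 75th percentile centring, named probes only, the mean of all probes, a floor at the 25th percentile, other filters on dim genes and a 3-fold limit.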

Additional observations from a re-analysis of the deposited data

Results flagged for a closer look

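For 6 genes with ordinary symbols the arrays of the follicular and of the other regulatory cells moved in opposite directions between genotypes. They did so by at least 0.5 each and by at least 2-fold together, and further genes without ordinary symbols did so too. With 1 array per group the difference between the populations was not tested. The interaction was -2.02 for C2cd4b, -1.43 for Tmem154, -1.24 for Zc3h12c, -1.18 for Hdac9, 1.49 for Ctsl and 1.81 for Atp1b1. That of C2cd4b was smaller in size with the mean of all its probes. Tmem154 was at 11.00 and 10.12 in control and knockout TFR cells and 9.95 and 10.50 in the matching non-TFR cells. Zc3h12c was at 7.62, 7.10, 6.62 and 7.35 and Hdac9 at 7.31, 6.77, 6.80 and 7.43 in the same order. All 4 levels of each lay above the expression limit.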

How the results depend on the processing

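No paired analysis was possible because each group has 1 array and the labels give no replicate numbers; no array could be left out for the same reason. Under 6 other normalizations and probe choices there were 30 to 32 positive and 65 to 79 negative genes, 30 or 31 of the 31 and 63 to 72 of the 72 stayed past 2-fold, and all 103 kept their sign. The median interaction of expressed genes lay between -0.05 and -0.00 there. Of these alternatives, the mean of all probes can change only genes with more than 1 probe, and the floor only genes with a level below it. Few of the 103 genes were open to change under either. The counts moved with the filter and the limit. Without a filter on dim genes there were 67 positive and 112 negative genes, above the 75th percentile of expression 5 and 32, and with every array above the median 19 positive and 55 negative. At 3-fold there were 2 and 9. Of 954 values of named genes under the alternatives 938 moved by less than the spread used, 16 moved and 0 reversed. Of 315 list medians 26 moved and 1 reversed: CD8 T cell and NK cell markers, -0.20 over all members, were at 0.0635 over members in no other list.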

Other observations

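Compared with probes of 1 gene, probes without a gene symbol had interactions of at least 2-fold more often in both directions. Probes with several genes did so in the negative direction only. Of 6118 probes without a gene symbol above the expression limit, 296 (4.84%) were more positive and 196 (3.20%) more negative in TFR cells. Among 11565 probes with 1 gene the numbers were 34 (0.294%) and 77 (0.666%), and among 898 with several genes 1 (0.111%) and 16 (1.78%). What these probes measure is not given in the sources used here.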
